A study of Mus musculus with 10 samples.

Results

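The 14-3-3 proteins were followed on 31 probe sets of 7 mouse genes, Ywhab, Ywhae, Ywhag, Ywhah, Ywhaq, Ywhaz and Sfn, out of 18193 genes and 45101 probe sets on each array. A probe set was taken if the platform annotation named exactly 1 gene for it and that gene was one of the 7, out of 34945 probe sets that named 1 gene. The genes were chosen because Ywhab differed between the genotypes in these same data. The contrast between genotypes is therefore described for all 7 genes and not tested. The data come from 10 mice of the DBA1/lacJ strain given 120 µg/kg of lipopolysaccharide (LPS, a bacterial cell wall component) into the peritoneum. Brains were taken 5 h later and the preoptic region of the hypothalamus was cut out by laser capture microdissection. By their labels 5 of the mice were mPGES-1 knockouts and 5 were wild-type. The enzyme mPGES-1, encoded by Ptges, is the inducible prostaglandin E2 synthase of inflammation and fever. All mice received LPS, so no untreated level is given here, and neither the deleted stretch of Ptges nor the age or sex of the mice is stated in the labels. The comparison asks how the genotypes differ in preoptic RNA once LPS has acted.

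The 14-3-3 proteins are small acidic adaptor proteins that work as dimers. Each dimer holds phosphorylated serine or threonine motifs on client proteins, and so moves a client between cytoplasm and nucleus, blocks or stabilizes it, or bridges a pair of proteins. They are very abundant in neurons, where they bind kinases, transcriptional co-regulators, pro-death proteins, ion channels and the enzymes of monoamine synthesis. Ywhab, Ywhae, Ywhag, Ywhah, Ywhaq and Ywhaz encode the beta, epsilon, gamma, eta, theta and zeta forms, and Sfn encodes stratifin, the sigma form, which is known mainly from epithelia.

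Some measurements of the whole arrays stand beside every result below. Ptges itself did not have a lower signal under the knockout label. Of its 3 probe sets, all dim, 1439747_at gave 49.96 ± 24.5 (SD, n = 5) in arrays labelled knockout and 4.54 ± 3.09 (SD, n = 5) in arrays labelled wild-type. In the same order 1449449_at gave 40.2 ± 21.5 and 13.4 ± 13.6, and 1449450_at gave 37.3 ± 15.9 and 30.7 ± 19.7 (SD, n = 5 each). The groups overlapped on both of these. Every direction below therefore rests on the labels. Each array had the same mean intensity, 200.002, after the lowest 2% and highest 2% of probe sets were set aside. The shape of the distribution still differed between the groups. The brightest probe set of an array reached 43957 to 67685 in arrays labelled knockout and 68999 to 144328 in arrays labelled wild-type. The median probe set was at 24.7 to 29.9 in arrays labelled knockout and at 32.0 to 44.8 in arrays labelled wild-type. Bacterial hybridization controls, which do not come from the mouse RNA, were at 3828 to 6653 (median 5825) in arrays labelled knockout and 5609 to 14046 (median 12069) in arrays labelled wild-type. The ratio of the 3′ to the 5′ Gapdh control, a sign of RNA length after amplification, was 33.2 to 51.5 in arrays labelled knockout and 24.6 to 53.4 in arrays labelled wild-type. Polyadenylated control RNAs, spiked into a sample, were detected (mean of 100 or more) on 4 of 5 arrays labelled knockout and on 3 of 5 labelled wild-type. Neuronal markers summed to 19412 to 30751 in arrays labelled knockout and 20647 to 25218 in arrays labelled wild-type, with 4 of 8 higher and 4 lower. Astrocyte markers summed to 11464 to 16667 in arrays labelled knockout and 14285 to 18953 in arrays labelled wild-type, with 3 of 5 higher and 2 lower. The brightest of them, Gfap, was lower, at a log2 difference of -0.73 as deposited and -0.62 after quantile normalization. All 8 preoptic markers of a list were above the dimmest 40% of probe sets, and they summed to 2481 to 3479 in arrays labelled knockout and 2438 to 2671 in arrays labelled wild-type. Microglial markers summed to 4748 to 6905 in arrays labelled knockout and 6646 to 10313 in arrays labelled wild-type, with 2 of 5 higher and 3 lower. P2ry12, which was higher, was among the dimmest 40% of probe sets, and the brightest, Csf1r, was lower, at -0.58. Endothelial markers summed to 400.4 to 647 in arrays labelled knockout and 528 to 1159 in arrays labelled wild-type, with 1 of 4 higher and 3 lower. The higher one, Pecam1, was among the dimmest 40% of probe sets, with a mean intensity of 5.4. Oligodendrocyte markers summed to 6928 to 12203 in arrays labelled knockout and 8146 to 12525 in arrays labelled wild-type, also with 1 of 4 higher and 3 lower. Of these, Mog, which was lower, was among the dimmest 40% of probe sets. Striatal markers summed to 233 to 618 in arrays labelled knockout and 283 to 348 in arrays labelled wild-type, with 3 of 4 higher and Drd1 at 1.24. Drd2 and Ppp1r1b, also higher, were among the dimmest 40% of probe sets. Rgs9, the brightest of the 4, was lower, at -0.25. Markers of choroid plexus and ependyma summed to 131 to 6224 in arrays labelled knockout and 226 to 516 in arrays labelled wild-type, and the highest knockout value was 374 without replicate 3. The part of these array-wide and cell type differences in the results was not tested, beyond the values given below. Because these are bulk samples, fewer cells of a type and less RNA per cell cannot be told apart.

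Promoter sequence is shown for Ywhah, Ywhag and Ywhae, whose brightest probe sets were all higher in mice labelled knockout both as deposited and after quantile normalization. Each run is the 250 bases before the annotated start of the gene, 5′ to 3′, from RefSeq on GRCm38.p6. The windows are chr5:33018566-33018815, plus strand (Ywhah), chr5:135934642-135934891, minus strand (Ywhag) and chr11:75732637-75732886, plus strand (Ywhae). Capitals mark TGACG on either strand, which is one arm of the cAMP response element TGACGTCA. That element is bound by CREB-family factors, and some prostaglandin E2 receptors signal through cAMP.
Ywhah: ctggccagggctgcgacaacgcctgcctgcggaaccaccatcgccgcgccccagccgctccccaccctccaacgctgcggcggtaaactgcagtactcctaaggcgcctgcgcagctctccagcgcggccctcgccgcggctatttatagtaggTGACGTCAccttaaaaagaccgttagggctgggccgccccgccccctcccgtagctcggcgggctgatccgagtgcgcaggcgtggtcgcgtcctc
Ywhag: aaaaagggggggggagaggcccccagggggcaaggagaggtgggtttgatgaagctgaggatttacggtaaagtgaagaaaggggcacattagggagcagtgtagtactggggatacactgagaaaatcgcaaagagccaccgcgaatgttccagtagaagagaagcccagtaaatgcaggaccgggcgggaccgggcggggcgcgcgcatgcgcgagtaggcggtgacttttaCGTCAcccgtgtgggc
Ywhae: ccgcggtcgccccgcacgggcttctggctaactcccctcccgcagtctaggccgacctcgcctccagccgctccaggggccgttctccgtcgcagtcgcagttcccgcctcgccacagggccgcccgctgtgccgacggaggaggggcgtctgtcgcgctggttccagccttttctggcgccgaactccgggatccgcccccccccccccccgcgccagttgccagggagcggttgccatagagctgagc

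The Ywhah window held the full element TGACGTCA, starting 96 bases before the gene's start. Among all 32851 promoter windows of that length in the RefSeq table, 1.55% held TGACGTCA. The Ywhag window held the shorter TGACG once, on the opposite strand and 16 bases before the start, and 17.8% of all windows held it on either strand. The Ywhae window held neither, and nor did the windows of Sfn and Ywhaq, which are not shown. The GC box GGGCGG, on either strand, was present in the windows of Ywhae, Ywhag and Ywhah and in 32.7% of all windows. The CCAAT box, read as CCAAT on either strand, was in the windows of Sfn and Ywhaq and in 33.8% of all windows. In all, 5 of the 7 genes had a window in the table, and Ywhab and Ywhaz are named only. A match is a string of letters and says nothing about binding in these mice.

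Ywhab was lower in mice labelled knockout on all 6 of its probe sets as deposited, with log2 differences of -0.73 to -0.28, and after quantile normalization on 5 of 6, with -0.30 to 0.018. The beta form binds Raf kinases and the pro-death protein Bad, among many clients. Its brightest probe set, 1455815_a_at, is number 2 in mean signal among the 34945 probe sets with 1 gene. It gave intensities of 40219.9, 36439, 41544, 45098 and 33076 on arrays labelled knockout, replicates 1 to 5. On arrays labelled wild-type it gave 60754, 83566, 65591, 71567 and 48711. The groups did not overlap, and the nearest pair was replicate 4 labelled knockout and replicate 5 labelled wild-type. On the log2(intensity + 16) scale used throughout, this probe set averaged 15.25 ± 0.17 (SD, n = 5) in mice labelled knockout and 15.99 ± 0.29 (SD, n = 5) in mice labelled wild-type. The difference was -0.73, a ratio of 0.601.

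The next 3 Ywhab probe sets in brightness were lower by a smaller amount. Probe set 1436783_x_at gave 19349, 17939.7, 18079.5, 20499 and 16210.3 on arrays labelled knockout, against 21314, 32322, 28129.6, 23109.6 and 20645 on arrays labelled wild-type. Here too the groups did not overlap, with a difference of -0.43, although replicate 4 labelled knockout and replicate 5 labelled wild-type were nearly equal. Probe set 1420880_a_at gave 12725, 11441, 9047, 10246 and 10356 on arrays labelled knockout, against 14081, 16357, 15218, 11980.5 and 12078 on arrays labelled wild-type. On 4 of 5 arrays labelled knockout it was below every array labelled wild-type, and its difference was -0.37. Probe set 1420879_a_at gave 13302, 8168, 9096, 9491 and 7231 on arrays labelled knockout, against 11092, 15652, 11324, 13731 and 13156 on arrays labelled wild-type. Replicate 1 labelled knockout lay inside the wild-type range, the other 4 lay below it, and the difference was -0.48.

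The last 2 Ywhab probe sets were dim and uneven. Probe set 1438708_x_at ranged from 82.0 to 316 (median 269) on arrays labelled knockout and from 75.8 to 1038 (median 109) on arrays labelled wild-type, with 2 wild-type arrays far above the other 3. Its difference was -0.30, within a pooled SD of 1.34, and without replicate 2 labelled wild-type it was 0.22, without replicate 3 labelled wild-type 0.10, and on the 7 arrays with spike-in signal 0.26. Probe set 1420878_a_at ranged from 49.0 to 91.1 on arrays labelled knockout and from 59.7 to 124 on arrays labelled wild-type, with a difference of -0.28, or -0.17 without replicate 2 labelled wild-type.

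**Figure D1:**
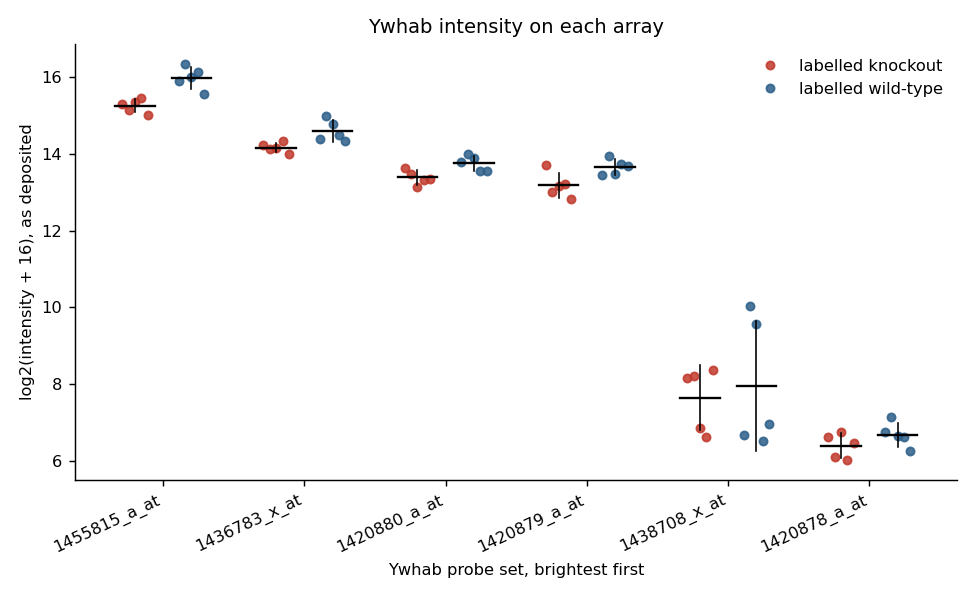
Each point is 1 array, with log2(intensity + 16) of the 6 Ywhab probe sets as deposited on the vertical axis, arrays labelled knockout left and labelled wild-type right; bars are means and lines are 1 SD (n = 5 each). The brightest probe set, at the left, separates the groups with a difference of -0.73, and the dim probe sets overlap.

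Signals as bright as Ywhab were lower in the arrays labelled knockout as a class. Of the 100 brightest probe sets with 1 gene, 100 were lower, with a median difference of -0.52, and of the 50 brightest, 50 were lower, with a median of -0.58. The brightest Ywhab probe set was at -0.73, and 6 of the 100 brightest lay below it. Over all 20967 probe sets tested the median difference was -0.05. Among the 31 probe sets of the family the same order was seen. In classes drawn after the values were seen, all 6 among the 500 brightest probe sets were lower (4 of Ywhab, 1 of Ywhaq and 1 of Ywhaz), with a median of -0.41. Of those 500 probe sets as a whole 87.8% were lower, with a median of -0.30. Of the 13 that ranked between 500 and 5000, 9 were higher and 4 lower, and of the 12 dimmer ones, 6 were higher and 6 lower.

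After quantile normalization, which gives every array the same distribution, the brightest Ywhab probe set was at -0.086 in place of -0.73. Probe sets 1436783_x_at, 1420880_a_at and 1420879_a_at were then at 0.018, -0.081 and -0.24, and none of the 6 Ywhab probe sets separated the groups. A quantile-normalized value depends only on the rank of a probe set on its array, and 1455815_a_at cannot move far. It ranked 3, 2, 1, 4 and 3 on arrays labelled knockout and 1, 3, 2, 3 and 1 on arrays labelled wild-type. Of the 29 family probe sets above the filter on dim signals, 3 were lower without overlap between groups as deposited and 0 were higher, where 2.81% of all tested probe sets were lower and 1.48% higher without overlap. These were 1455815_a_at and 1436783_x_at of Ywhab and 1436846_x_at of Ywhaq. After quantile normalization 1 was lower without overlap, 1436846_x_at, and 0 were higher, where 1.61% of all tested probe sets were lower and 1.72% higher. Because the genes were chosen on this contrast, nothing is read from these counts.

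**Figure D2:**
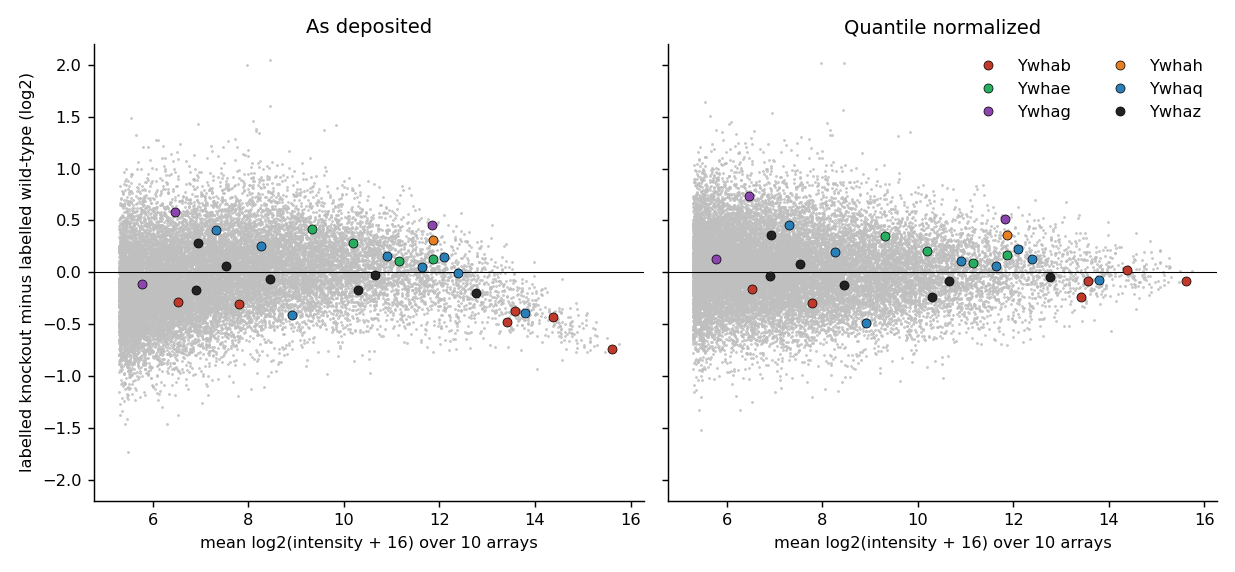
Grey points are the 20967 tested probe sets, with mean log2(intensity + 16) on the horizontal axis and the difference labelled knockout minus labelled wild-type (log2) on the vertical axis; coloured points are the 29 tested family probe sets. As deposited the brightest probe sets slope down to Ywhab at -0.73, and after quantile normalization the slope is gone and Ywhab is at -0.086.

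Within the groups, too, Ywhab went with the bright signals of its array. With group means removed, the brightest Ywhab probe set correlated with the hybridization controls at Pearson r = 0.91 and Spearman rho = 0.79 over 10 arrays (two-sided exact permutation within groups, p = 0.00083 and 0.017). With the median of the other 100 brightest probe sets, r was 0.95 and rho 0.95 (exact permutation p = 0.00042 and 0.00076). These 2 relations were looked at after the data were seen, and after Benjamini-Hochberg adjustment over both the permutation p of r was 0.00083 for each and that of rho was 0.017 and 0.0015. Without the 2 arrays farthest from the median, r was 0.82 and 0.93. Because 1455815_a_at ranked 1 to 4 on every array, its correlation with the other brightest probe sets was largely set in advance. That correlation describes the arrays, and nothing particular to Ywhab is read from it. Replicate 5 labelled wild-type had hybridization controls of 5609, inside the range of the knockout label, and the lowest Ywhab value of its group. That value, 48711, was still above every array labelled knockout, the highest of which was 45098. Its median of the other 100 brightest probe sets, 14.72, was also above the range of the knockout label, which ended at 14.56.

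**Figure D3:**
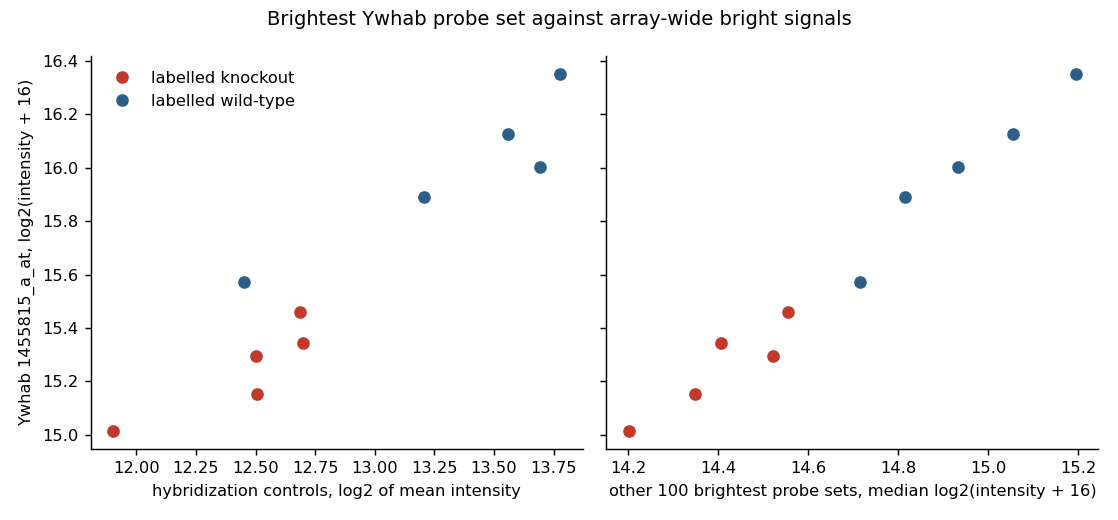
Each point is 1 array, with log2(intensity + 16) of Ywhab 1455815_a_at on the vertical axis, against the log2 mean of the hybridization controls (left) and the median of the other 100 brightest probe sets (right). Ywhab is higher where the array-wide signal is higher (r = 0.91 and 0.95 with group means removed). In the left panel 1 array labelled wild-type lies in the range of the knockout label on the horizontal axis, but above it on the vertical axis.

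Of the other 5 Ywhab probe sets, none correlated with the brightest within groups at an adjusted p below 0.05. With group means removed, 1455815_a_at correlated with 1436783_x_at at r = 0.82 as deposited (exact permutation p = 0.010, adjusted over 5 relations 0.052; rho 0.73, exact permutation p = 0.035, adjusted 0.18). Without the 2 farthest arrays this r was 0.60. After quantile normalization 1455815_a_at holds only the values of ranks 1 to 4, with ties, so no correlation is read there. For the other 4 probe sets r lay between 0.24 and 0.50 and rho between -0.03 and 0.64, with a smallest exact permutation p of 0.14 for r and 0.071 for rho (adjusted 0.27 and 0.18).

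The brightest probe sets of the epsilon, gamma and eta genes were higher in mice labelled knockout on both scales. All 4 Ywhae probe sets were higher, by 0.11 to 0.42 as deposited and by 0.09 to 0.35 after quantile normalization. The epsilon form is needed for neuronal migration in mice. Its brightest probe set, 1438839_a_at, gave 4171, 4502, 4082, 3203 and 3671 on arrays labelled knockout, against 3318, 4094, 3521, 3727 and 3282 on arrays labelled wild-type. The groups overlapped widely, with the lowest value of all in replicate 4 labelled knockout, and the difference was 0.12. Probe set 1426385_x_at gave 1234, 1554, 1294, 1102 and 1245 on arrays labelled knockout, against 1009, 1075, 1179, 1097 and 909 on arrays labelled wild-type. On 4 of 5 arrays labelled knockout it was above every array labelled wild-type, with a difference of 0.28. The other Ywhae probe sets, 1435702_s_at and 1426384_a_at, were at 0.11 and 0.42. They were at 0.024 and 0.24 without replicate 2 labelled knockout, and 1435702_s_at was at 0.0069 without replicate 4 and 0.045 without replicate 5 labelled wild-type. Single arrays also moved 1438839_a_at, to 0.073 without replicate 2 and 0.20 without replicate 4 labelled knockout.

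Ywhag, the gamma gene, is expressed strongly in brain, and its protein binds tyrosine hydroxylase and Raf kinases. Its bright probe set 1450012_x_at gave 3523, 5093, 4000.2, 4273 and 4658 on arrays labelled knockout, against 3063, 3144, 4620.4, 2722 and 2400.1 on arrays labelled wild-type. Without the high value of replicate 3, the wild-type label would lie wholly below the knockout label. The difference was 0.46 as deposited and 0.51 after quantile normalization. The dimmer 1420817_at ranged from 59.7 to 126 on arrays labelled knockout and from 14.8 to 94.2 on arrays labelled wild-type, at 0.58 and 0.74 on the 2 scales. Without replicate 1 labelled wild-type, the lowest array, its deposited difference was 0.27. The other 2 Ywhag probe sets were dimmer still: 1459693_x_at was at -0.11 as deposited and 0.13 after quantile normalization, and 1420816_at, below the filter on dim signals, at -0.14 and -0.06.

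Ywhah, the eta gene, is expressed in brain neurons and has 1 probe set, 1416004_at. It gave 4373, 3970.3, 4313, 4275 and 3714 on arrays labelled knockout, against 3469, 2921, 3512, 3955 and 2899 on arrays labelled wild-type. On 4 of 5 arrays labelled knockout it was above every array labelled wild-type, and only replicate 5 of the knockout label lay inside the wild-type range. On the log2 scale it averaged 12.01 ± 0.10 (SD, n = 5) in mice labelled knockout and 11.71 ± 0.19 (SD, n = 5) in mice labelled wild-type, a difference of 0.31. After quantile normalization the difference was 0.36. The difference was 0.16 as deposited and 0.20 after quantile normalization on the 7 arrays that showed spike-ins.

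**Figure D4:**
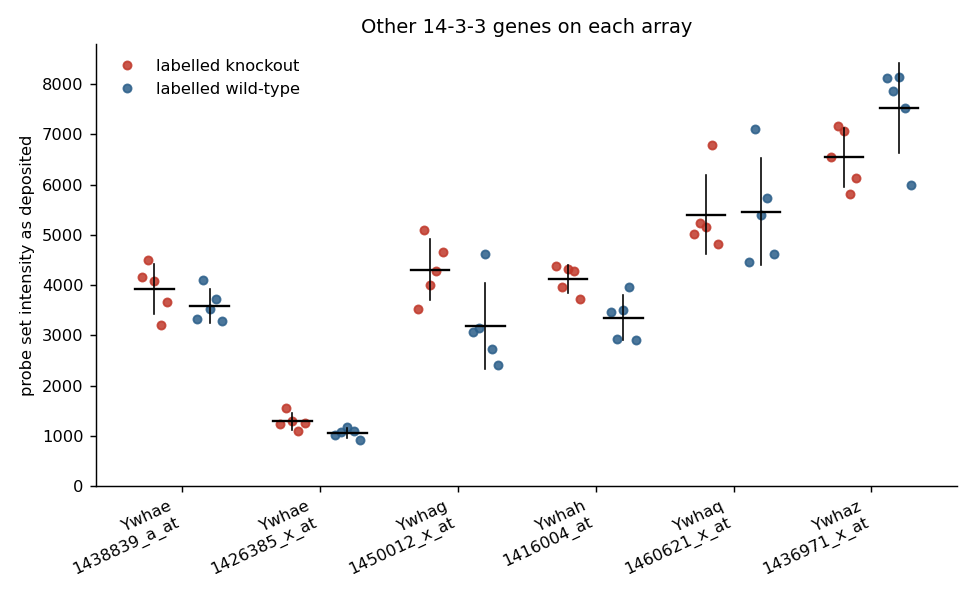
Each point is 1 array, with the deposited intensity of 6 probe sets of Ywhae, Ywhag, Ywhah, Ywhaq and Ywhaz on the vertical axis, arrays labelled knockout left and labelled wild-type right; bars are means and lines are 1 SD (n = 5 each). Ywhah and Ywhag 1450012_x_at lie mostly higher under the knockout label, Ywhaz 1436971_x_at mostly lower, and every pair of groups shown overlaps. Ywhaq is shown by 1460621_x_at, at -0.01. Its brightest probe set, 1460590_s_at, at -0.39, and 1436846_x_at, which did not overlap between groups, are not shown.

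Ywhaq, the theta gene, first described in T cells, is represented by 8 probe sets that did not share a direction. As deposited 5 were higher and 3 lower, and after quantile normalization 6 were higher and 2 lower. The brightest, 1460590_s_at, gave 13021, 13782, 10798, 13255 and 11205 on arrays labelled knockout, against 15712, 19841, 19466, 13490.4 and 13616 on arrays labelled wild-type. On 4 of 5 arrays labelled knockout it was below every array labelled wild-type, at -0.39, but after quantile normalization the difference was -0.08. The dimmer 1436846_x_at gave 461, 459, 360.3, 395 and 358 on arrays labelled knockout, against 698, 598, 486, 470.3 and 489 on arrays labelled wild-type. It did not overlap between groups and was at -0.41 as deposited and -0.49 after quantile normalization. Probe set 1420828_s_at went the other way, at 0.41 and 0.46, with 3 of 5 arrays labelled knockout above every array labelled wild-type. The remaining 5, 1460621_x_at, 1432842_s_at, 1420830_x_at, 1420829_a_at and 1437608_x_at, lay between -0.01 and 0.25 as deposited, and the highest of them, 1437608_x_at, was at 0.14 without replicate 2 labelled knockout.

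Ywhaz, the zeta gene, whose protein is a widely used scaffold for kinases, is represented by 7 probe sets, of which 5 were lower and 2 higher on both scales, although all 7 were higher once each array was centred on its median. The brightest, 1436971_x_at, gave 6555, 7172, 7069, 5808 and 6124 on arrays labelled knockout, against 8120.1, 7860.3, 8151, 7525 and 5989 on arrays labelled wild-type. The groups would separate but for replicate 5 labelled wild-type, and the difference was -0.20 as deposited and -0.05 after quantile normalization. Probe set 1448219_a_at, whose values as deposited have the smallest pooled SD of the 7, was at -0.03 as deposited and -0.08 after quantile normalization. The other 5 lay between -0.17 and 0.28 as deposited, and the highest, 1448218_s_at, was at 0.087 without replicate 3 labelled knockout. Sfn was dim, at 16.5 ± 5.73 (SD, n = 5) in mice labelled knockout and 17.1 ± 13.2 (SD, n = 5) in mice labelled wild-type. It ranked 24165 of 34945 in mean signal and was left out of the test as too dim. Of 6 epithelial markers, Krt5, Krt14 and Cdh1 had mean intensities of 13.0, 12.7 and 12.1, below the filter on dim signals, and Krt8, Krt18 and Epcam had 61.8, 36.6 and 29.2 and passed it. The 6 summed to 121 to 175 in arrays labelled knockout and 125 to 213 in arrays labelled wild-type.

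**Figure D5:**
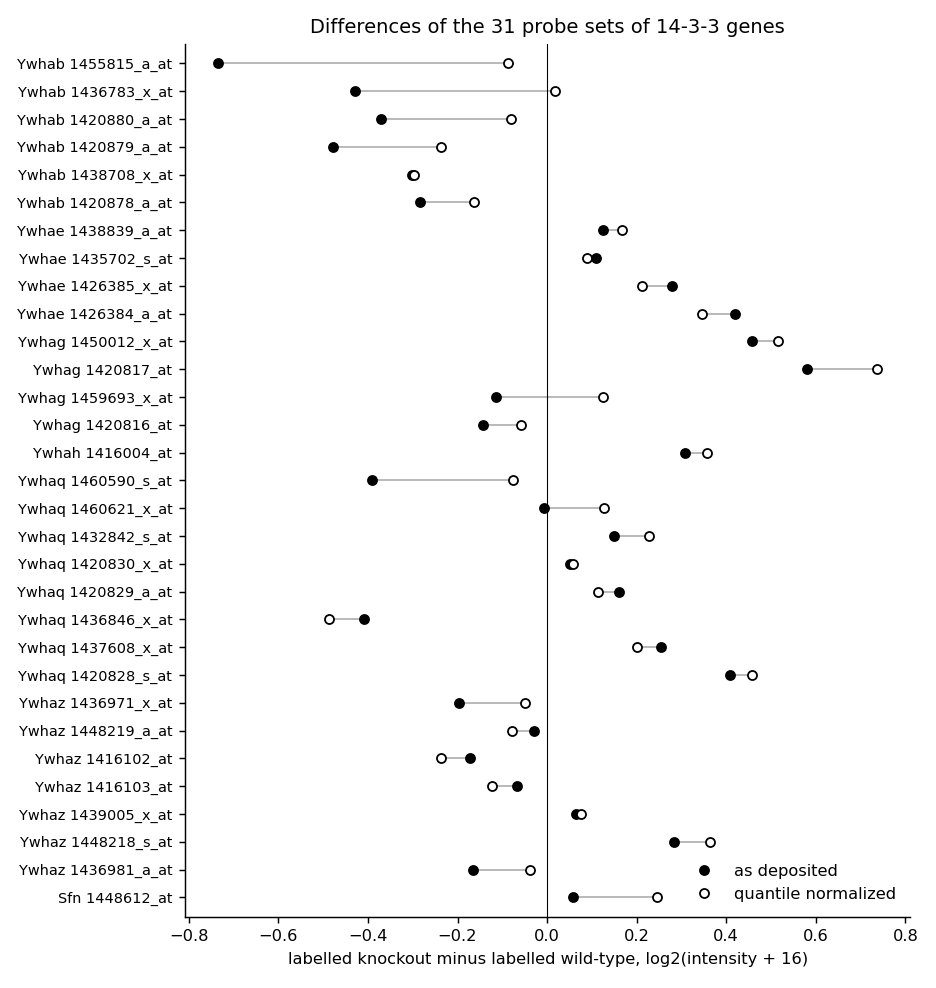
Each line is 1 of the 31 probe sets, with the difference labelled knockout minus labelled wild-type on the log2(intensity + 16) scale on the horizontal axis, as deposited (filled) and after quantile normalization (open). The Ywhab points move from between -0.73 and -0.28 to between -0.30 and 0.018, and all 4 Ywhae points and the Ywhah point lie above 0 on both scales.

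Centring each array on its median moved the median difference of all tested probe sets, like every single difference, up by 0.28. The 4 probe sets of Ywhae and the 1 of Ywhah, already higher, could therefore only stay higher. The 6 Ywhab probe sets were then still below zero, from -0.45 for 1455815_a_at to -0.021 for 1438708_x_at and -0.0035 for 1420878_a_at. The dim ones thus showed almost no difference on this scale. Over the 31 probe sets, 15 were higher and 16 lower in mice labelled knockout as deposited, with a median of -0.01, and 18 were higher and 13 lower after quantile normalization, with a median of 0.08. Over all 34945 probe sets with 1 gene, 12994 were higher and 21951 lower as deposited (median -0.11), and after quantile normalization the median was 0.00084. Of the 31, 16 have names ending in _x_at or _s_at, which the array maker gives to probes that can match other transcripts. The 14-3-3 genes are much alike in sequence, so probe sets with these endings may hold signal of more than 1 member, which was not tested.

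No relation of Ywhab with another member within the groups passed an adjusted p of 0.05. With group means removed, r between the brightest probe sets of Ywhab and each other gene ran from -0.53 (Sfn) to 0.49 (Ywhaq) over 10 arrays. For Ywhaq r was 0.49 and rho 0.30 (two-sided exact permutation within groups, p = 0.25 and 0.48), and without the 2 farthest arrays r was -0.02. For Ywhah r was 0.37 and rho 0.35 (exact permutation p = 0.42 and 0.39). With 1 array left out at a time r for Ywhah ran from 0.016 to 0.94. The highest, without replicate 2 labelled wild-type, had an adjusted exact permutation p of 0.019. That adjustment covers the 6 relations and not the choice of array, so no relation is read from it. Without the 2 farthest arrays r for Ywhah was 0.76. For Ywhae, Ywhag, Ywhaz and Sfn r was 0.30, 0.12, 0.44 and -0.53, with an exact permutation p of 0.39, 0.79, 0.28 and 0.22. For the same genes rho was 0.22, -0.01, 0.03 and -0.53 (exact permutation p = 0.54, 1, 0.95 and 0.18), and r without the 2 farthest arrays was -0.19, -0.34, -0.23 and -0.14. After Benjamini-Hochberg adjustment over the 6 relations the smallest permutation p of r was 0.51 and that of rho 0.81.

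The probe sets most like 1455815_a_at in within-group pattern were named by r over the 10 arrays, as a description. As deposited they were of Atp6ap2 (r = 0.99), Cox5b (0.99), Id1 (0.98), Mag (0.96) and Npc2 (0.96). In that order they rank 47, 5, 20383, 14818 and 34 in mean signal, so 3 are bright and Id1 and Mag are dim. Their own differences were -0.58, -0.70, -0.14, -0.59 and -0.77. After quantile normalization, with those few tied values, the 5 were of Zfp281, Ank2, Nrip1, Epha7 and Rbfox3, with r from 0.93 to 0.96.

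Genes that work with the 14-3-3 proteins were examined in 2 lists, 47 clients and 25 kinases that phosphorylate client sites. Of 38 tested clients 20 were higher and 18 lower in mice labelled knockout, and of 22 tested kinases 13 were higher and 9 lower. Of these 60 genes 0 passed limma's Benjamini-Hochberg adjusted p below 0.05, where 0% of all 12780 tested genes passed. At an unadjusted limma p below 0.05 there were 6 of 60, 3 higher and 3 lower, where 16.3% of all tested genes were below it. The median difference was 0.01 for clients and 0.15 for kinases, against -0.04 over all tested genes. After quantile normalization 0 of 62 passed and 6 were below the unadjusted limma p of 0.05, where 13.7% of all tested genes were. With each array centred on its median, 3 of 60 passed (Braf, Prkcz and Rps6ka3, all higher), where 5.18% of all tested genes passed as higher and 0.125% as lower, so the share of the lists was near that of all genes.

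Among the clients, Braf, a Raf-family kinase that 14-3-3 binds, had the smallest p. It averaged 836 ± 152 (SD, n = 5) in mice labelled knockout and 603 ± 91.0 (SD, n = 5) in mice labelled wild-type, a log2 difference of 0.45 (SE 0.17, limma adjusted p = 0.20). Hdac5, a histone deacetylase held in the cytoplasm by 14-3-3, was at 0.45 (SE 0.22), Pfkfb2, which controls glycolytic flux, at 0.36 (SE 0.20) and Araf at 0.80 (SE 0.46), with limma adjusted p of 0.33 to 0.41. On the lower side Mlxipl, a glucose-responsive transcription factor, was at -0.50 (SE 0.23, limma adjusted p = 0.30) and did not overlap between groups as deposited. It was dim, close to the median probe set of the arrays, at 25.7 ± 6.84 (SD, n = 5) in mice labelled knockout. In mice labelled wild-type it was at 42.4 ± 3.65 (SD, n = 5), and after quantile normalization the difference was -0.22. Bad, the pro-death protein that 14-3-3 sequesters, was at -0.49 (SE 0.26), Hdac7 at -0.39 (SE 0.32) and the CREB co-activator Crtc1 at -0.35 (SE 0.31), with limma adjusted p of 0.37 to 0.61. After quantile normalization Bad was at -0.50, and the dim Hdac7 and Crtc1 were at -0.16 and -0.12.

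Among the kinases, Pim1, a cytokine-induced survival kinase, had the smallest p. It averaged 57.4 ± 12.2 (SD, n = 5) in mice labelled knockout and 101 ± 23.0 (SD, n = 5) in mice labelled wild-type, a log2 difference of -0.67 (SE 0.22, limma adjusted p = 0.15). Prkaca, the catalytic subunit of cAMP-dependent protein kinase, was at -0.49 (SE 0.19), Akt2 at -0.40 (SE 0.19) and the salt-inducible kinase Sik2 at -0.32 (SE 0.19), with limma adjusted p of 0.23 to 0.43. On the higher side the atypical protein kinase C gene Prkcz was at 0.44 (SE 0.18), the ribosomal S6 kinase gene Rps6ka3 at 0.45 (SE 0.18), the Hippo pathway kinase Lats1 at 0.36 (SE 0.18) and Prkaa1, a catalytic subunit of AMP-activated kinase, at 0.44 (SE 0.23). Their limma adjusted p lay between 0.24 and 0.37, and all 8 named kinases kept their sign after quantile normalization.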

How the data were processed

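Each of 10 mice gave 1 array of preoptic RNA. Per the labels' protocols the RNA went through 2 rounds of amplification and a biotin label. The deposited table holds linear intensity values of probe sets, which GCOS produced, per the submitters' processing notes. For GCOS no version, setting or detection call is given in the sources used. Groups come from the titles. Each replicate is its own mouse. A p-value therefore takes in animal, dissection, amplification and array variation at once, and the number of arrays limits precision.

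Probe sets were named from the platform annotation, and all 7 genes matched RefSeq (GRCm38.p6) by Entrez ID. Values were analysed as log2(intensity + 16), so differences understate changes of dim probe sets. The dimmest 40% of the 34945 probe sets with 1 gene were left out, which left 20967. These were fitted with limma 3.58.1 (eBayes with intensity trend, R 4.3.3), labelled knockout minus labelled wild-type, with Benjamini-Hochberg adjustment over all 20967. A client or kinase gene was represented by its brightest probe set, and an _x_at probe set stood for a gene only where it had no other kind. Differences of the family are plain differences of group means. Correlations used each gene's brightest probe set and exact permutation within groups (Python 3.11.15, numpy 2.4.6, pandas 2.3.3). The limma fit alone was tried on simulated arrays with independent noise. Those arrays held no array-wide difference of scale or brightness, so the trial does not cover that feature of these data.

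The members, lists, tests and settings were chosen with earlier results of these data known. Named genes are all members, the 4 client and 4 kinase genes with the smallest p in each direction and the 5 probe sets most like Ywhab. Alternatives were quantile normalization, centring on the array median, pseudocounts of 1 and 64, leaving out each array, the 7 arrays with spike-in signal (100 or more), blocks of spike-in and of replicate number, and, for the lists, no trend, array weights, other filters and any probe set. Quantile normalization within the 7 arrays was added after seeing the data. No pair of arrays held the same value at more than 0.00443% of probe sets. Same-numbered arrays did not deviate together (r from -0.11 to 0.05 over tested probe sets), so the numbers were not taken as pairs.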

Additional observations from a re-analysis of the deposited data

Results flagged for a closer look

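In 62 groups of 5 arrays, 2 for each of the 31 probe sets, 1 array stood far from the other 4 in 3 cases, where chance gives about 3.1. Ywhaq 1460621_x_at was at 6782 on replicate 4 labelled knockout, above 4819 to 5246 on the other 4. Ywhaz 1448218_s_at was at 216 on replicate 3 labelled knockout, above 100.3 to 104 on the other 4. Ywhaz 1436971_x_at was at 5989 on replicate 5 labelled wild-type, below 7525 to 8151 on the other 4.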

How the results depend on the processing

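The differences of the 6 Ywhab probe sets depended on how the arrays were scaled. With quantile normalization 1455815_a_at, 1436783_x_at and 1420880_a_at were at -0.086, 0.018 and -0.081. With each array centred on its median, those 3 and 1420879_a_at were at -0.45, -0.15, -0.091 and -0.20. With quantile normalization within the 7 arrays with spike-in signal, added after seeing the data, the same 4 were at -0.11, 0.033, -0.018 and -0.15. Leaving out 1 array at a time gave -0.84 to -0.64 for 1455815_a_at, -0.49 to -0.33 for 1436783_x_at, -0.43 to -0.31 for 1420880_a_at, -0.61 to -0.39 for 1420879_a_at, -0.66 to 0.22 for 1438708_x_at and -0.39 to -0.17 for 1420878_a_at. For the other members, 14 of 450 values under another setting moved by more than 1 SD and 43 turned sign. The client and kinase genes past the adjusted p numbered 3 of 60 (Braf, Prkcz and Rps6ka3) with median centring, where 5.18% of all tested genes passed as higher, and 0 in each other setting, leaving out any array included. The replicate block left 0 genes. Each such block holds 1 array of each label, so it cannot change a difference of group means, and that of 1455815_a_at stayed at -0.73 by design. The correlation of Ywhab with Ywhah ranged from 0.016 to 0.94 when 1 array was left out. The cause of these changes was not tested. With 5 arrays a group, no detection calls and a pseudocount of 16, the dim probe sets, Sfn among them, limit what can be read.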
